A study of Homo sapiens with 4 samples.

Results

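The carcinoembryonic antigen-related cell adhesion molecule (CEACAM) genes CEACAM1, CEACAM5, CEACAM6 and CEACAM7 were followed in A549, a human lung adenocarcinoma line. The 4 genes, of 19775 genes with a probe set of their own, were chosen by symbol with their signals on these arrays already known, several CEACAM1 probe sets serving as repeat measurements and bright genes standing beside dim ones. Every value below is therefore a description and no difference was tested. The table of probe sets and genes gives 12 probe sets to these genes, 5 to CEACAM1, 2 to CEACAM5, 2 to CEACAM6 and 3 to CEACAM7, and none of the 12 names a second gene.

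Each of the 4 conditions was measured on its own Affymetrix U133 Plus 2.0 array. These were A549 cells transfected with β-arrestin (ARRB1) siRNA and given nicotine, ARRB1 siRNA and serum starved, control siRNA and given nicotine, and control siRNA and serum starved. All cells were starved of serum for 36 h, and the nicotine samples received 1 µM for 24 h. The experiment asks which transcripts respond to nicotine in a manner that depends on β-arrestin-1, a scaffold of G-protein-coupled receptors. There are no replicates, so a difference between arrays cannot be set against the spread within a condition, and with so few arrays precision is low. The cells are a cultured line from a lung tumor, and the siRNA left part of the target signal. ARRB1 itself was lower with its siRNA on 6 of 7 probe sets in each pair of arrays. On the brightest, the signals were 224 with ARRB1 siRNA against 331 with control siRNA in nicotine treated cells, and 191 with ARRB1 siRNA against 352 with control siRNA in serum starved cells.

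CEACAM proteins are cell surface glycoproteins of the immunoglobulin superfamily that bind each other between cells. CEACAM1 spans the membrane and carries, in its long form, a cytoplasmic tail with inhibitory tyrosine motifs that recruit the phosphatases SHP-1 and SHP-2, and interferon is a known inducer of its transcription. CEACAM5 (carcinoembryonic antigen), CEACAM6 and CEACAM7 are held in the membrane by a glycosylphosphatidylinositol (GPI) anchor. CEACAM5 and CEACAM6 are abundant in many adenocarcinomas, and CEACAM7 is mainly a protein of colon epithelium.

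The genes lie on chromosome 19, and their promoters are related in sequence. Stretches from RefSeq (GRCh38.p14) are shown here because the brightest probe sets of CEACAM1 and those of CEACAM5 and CEACAM6 took different directions with ARRB1 siRNA in nicotine treated cells. Each runs 5′ to 3′ on the strand of its gene, from 130 to 31 bases before the annotated start, with matches to the motifs searched in capitals.
CEACAM1, chr19:42528512-42528611, minus strand: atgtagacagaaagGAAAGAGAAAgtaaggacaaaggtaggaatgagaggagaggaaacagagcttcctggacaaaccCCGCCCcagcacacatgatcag
CEACAM5, chr19:41708496-41708595, plus strand: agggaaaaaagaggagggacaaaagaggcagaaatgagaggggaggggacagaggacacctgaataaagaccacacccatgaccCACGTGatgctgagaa
CEACAM6, chr19:41755400-41755499, plus strand: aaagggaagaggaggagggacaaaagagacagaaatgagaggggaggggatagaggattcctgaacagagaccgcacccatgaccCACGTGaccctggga
CEACAM7, chr19:41688301-41688400, minus strand: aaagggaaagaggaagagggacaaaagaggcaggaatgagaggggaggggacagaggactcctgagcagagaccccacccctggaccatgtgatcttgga

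Over the whole windows of 300 bases (250 before the start and 50 from it), CEACAM5 and CEACAM7 were 81.4% identical, CEACAM6 and CEACAM7 80.5%, CEACAM5 and CEACAM6 74.7%, and CEACAM1 was 64.9% to 71.2% identical to the other 3. The windows were searched on both strands for 4 motifs. The interferon regulatory factor element, written as GAAA, any 2 bases and GAAA, was found in CEACAM1 at 116 to 107 bases before the start and in none of the other 3 windows, against 3.57% of 35116 promoter windows of the same length. The E-box CACGTG, a site of USF factors, was found in CEACAM5 at 46 to 41 bases and in CEACAM6 at 45 to 40 bases before the start, against 7.26% of all windows. The GC box CCGCCC, a site of SP1, was in the windows of CEACAM1 and CEACAM6 and in 45.0% of all windows, and the E2F site TTTCCCGC was in none of the 4 and in 1.63% of all. The E-box reads the same on both strands, so each of its matches was found on both at the same place, and otherwise no match overlapped another. A match describes the letters only.

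The values are linear MAS5 signal intensities. A probe set is called bright here when its mean signal over the 4 arrays, taken on the log2 scale, reaches 66.3, the median of the 54613 probe sets analysed, and 9 of the 12 CEACAM probe sets are bright. Signals of different probe sets are not amounts that can be compared, because probes differ in affinity, so brightness speaks only to precision. Of dim probe sets, 39.6% to 41.5% differed at least 2-fold between any 2 arrays compared, against 1.42% to 2.85% of bright ones. The spread quoted beside a log2 difference is the SD of that difference over the 500 probe sets nearest in mean signal. Several of the probe sets carry the suffix _x_at or _s_at, which marks probes that may bind related transcripts, and the CEACAM genes are close relatives, so RNA of a relative may enter their signals.

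Silencing of ARRB1 went with lower CEACAM1 signals than control siRNA on all 4 bright probe sets, whether or not nicotine was given. The brightest, 209498_at, had a signal of 233 with ARRB1 siRNA and nicotine, 303 with ARRB1 siRNA and serum starvation, 583 with control siRNA and nicotine, and 804 with control siRNA and serum starvation. Both ARRB1 siRNA arrays lay below both control siRNA arrays. With ARRB1 siRNA this probe set kept 37.7% of its control siRNA signal in serum starved cells and 39.9% in nicotine treated cells. Its log2 differences were -1.41 (spread 0.31) without nicotine and -1.33 (spread 0.33) with it, and these pairs of arrays share no array.

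The probe set 211889_x_at gave the same picture, with 68.7 and 62.7 in ARRB1 siRNA cells (nicotine, then serum starved) and 182 and 189 in control siRNA cells. Its log2 differences were -1.60 (spread 0.53) in serum starved and -1.40 (spread 0.59) in nicotine treated cells. For 211883_x_at the signals were 112 and 147 in ARRB1 siRNA cells and 240 and 198 in control siRNA cells. Its log2 difference was -0.44 in serum starved cells, close to the spread of 0.42, and -1.10 in nicotine treated cells. The last bright probe set, 206576_s_at, had 88.5 and 139 in ARRB1 siRNA cells and 171 and 191 in control siRNA cells, with log2 differences of -0.45 and -0.95 in the serum starved and nicotine treated pairs. On each of these 4 probe sets the ARRB1 siRNA arrays did not overlap the control siRNA arrays. The 4 belong to the same gene, and the share of all bright probe sets separated in this way was not counted.

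The fifth CEACAM1 probe set, 210610_at, was dim and did not follow the others. It had 87.0 and 86.1 in ARRB1 siRNA cells (nicotine, then serum starved), and 16.5 and 81.1 in control siRNA cells. The nicotine treated control siRNA array stood apart there, with a log2 difference from it of 2.39 in ARRB1 siRNA cells (spread 0.82), and with signals below the median set to that median this difference was 0.30.

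With a 2-fold limit, 2 of the 9 bright CEACAM probe sets, 209498_at and 211889_x_at of CEACAM1, were lower with ARRB1 siRNA in both pairs, against 0.289% of all 27307 bright probe sets. None was higher in both pairs, against 0.179%. The second of these, 211889_x_at, counts as bright only through its control siRNA signals, since its mean was 65.6 with ARRB1 siRNA against 186 with control siRNA, so the filter favours a lower call there. Of the other 8 probe sets, 1 was lower in both pairs. In serum starved cells alone, 2 of the 9 were at least 2-fold lower (1.06% of all bright probe sets) and 0 were higher (1.24%). In nicotine treated cells alone, 3 of the 9 were at least 2-fold lower (1.86%), all of CEACAM1, and 2 were higher (0.996%), 1 each of CEACAM5 and CEACAM6. In bulk RNA, fewer cells that express a gene and less of its RNA per cell cannot be told apart.

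**Figure D1:**
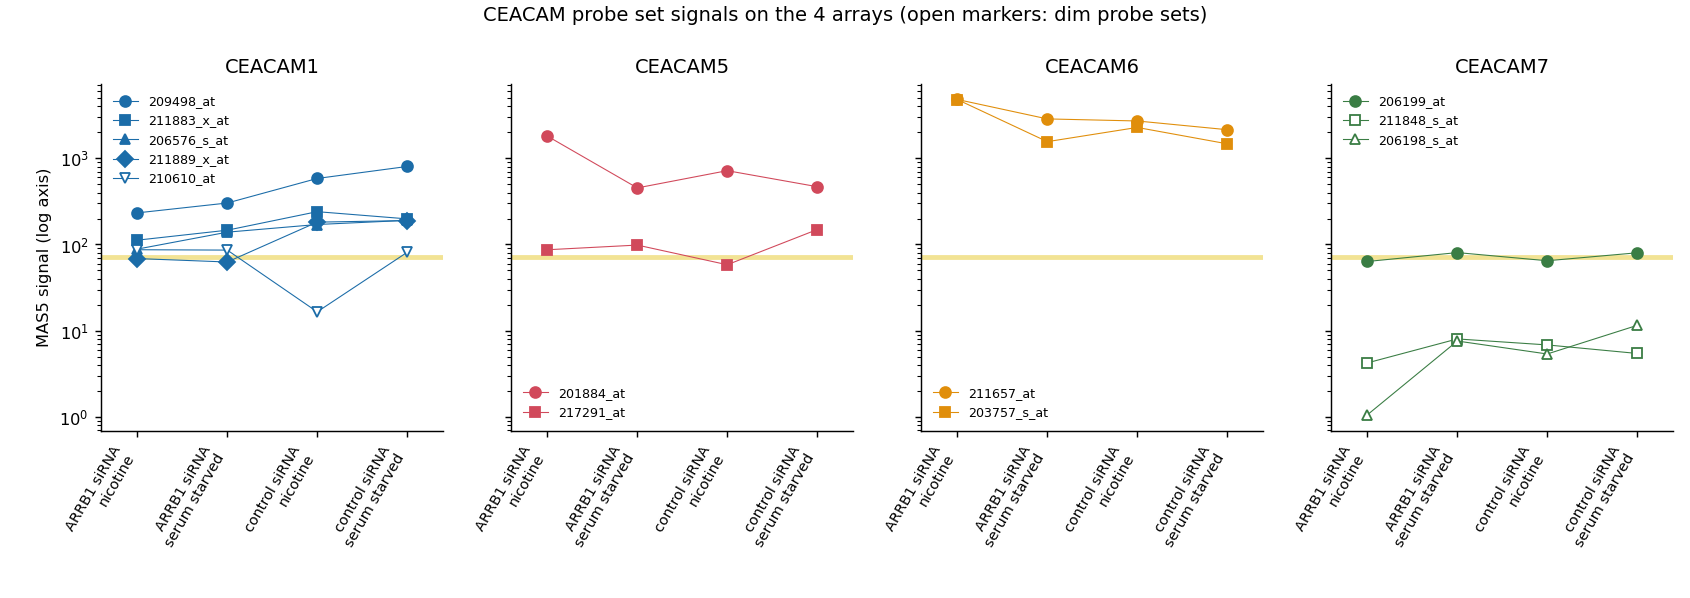
MAS5 signals (vertical log axis) of the 12 CEACAM probe sets on the 4 arrays (horizontal axis), 1 panel for each gene and 1 marker shape for each probe set, with open markers for dim probe sets. The array medians, 68.6 to 73.3, are shaded in yellow. The filled CEACAM1 markers are lower on both ARRB1 siRNA arrays, and CEACAM5 201884_at and both CEACAM6 probe sets are highest in nicotine treated ARRB1 siRNA cells, at 1807, 4797 and 4809.

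On 3 of the 4 probe sets of CEACAM5 and CEACAM6, the signal was highest in cells that had received both ARRB1 siRNA and nicotine. The share of all bright probe sets that were highest on that array was not counted. CEACAM5 201884_at had a signal of 1807 with ARRB1 siRNA and nicotine, 453 with ARRB1 siRNA and serum starvation, 719 with control siRNA and nicotine, and 469 with control siRNA and serum starvation. The serum starved arrays were close to each other (log2 difference -0.05 with ARRB1 siRNA, spread 0.30), and both nicotine arrays lay above them. Nicotine treated cells had 3.99 times the serum starved signal with ARRB1 siRNA (log2 difference 2.00, spread 0.28) and 1.53 times with control siRNA (0.62, spread 0.23).

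CEACAM6 203757_s_at had 4797 with ARRB1 siRNA and nicotine, 1559 with ARRB1 siRNA and serum starvation, 2279 with control siRNA and nicotine, and 1472 with control siRNA and serum starvation. The order of the arrays was that of CEACAM5, apart from the serum starved arrays, which differed by a log2 value of 0.08 (spread 0.24). Its nicotine treated signals were 3.08 times the serum starved signal with ARRB1 siRNA (log2 difference 1.62, spread 0.24) and 1.55 times with control siRNA (0.63, spread 0.16). The second CEACAM6 probe set, 211657_at, had 4809, 2862, 2709 and 2146 in the same order of conditions. It was also highest with ARRB1 siRNA and nicotine, but its nicotine ratios were smaller, 1.68 with ARRB1 siRNA and 1.26 with control siRNA, and the first did not reach the 2-fold limit. Its serum starved ARRB1 siRNA signal was 1.33 times the serum starved control siRNA signal (log2 difference 0.42, spread 0.24).

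Between nicotine treated arrays, ARRB1 siRNA cells had 2.52 times the control siRNA signal for CEACAM5 201884_at (log2 difference 1.33, spread 0.32). For CEACAM6 the ratios were 2.10 on 203757_s_at (log2 difference 1.07, spread 0.29) and 1.77 on 211657_at (0.83, spread 0.29). The log2 difference with ARRB1 siRNA was larger in nicotine treated than in serum starved cells by 1.38 for CEACAM5 201884_at, 0.99 for CEACAM6 203757_s_at and 0.41 for 211657_at. The same quantity was 1.17 for CEACAM5 217291_at. For the bright CEACAM1 probe sets it was 0.08 for 209498_at, 0.19 for 211889_x_at, -0.66 for 211883_x_at and -0.49 for 206576_s_at. Each of these values rests on 4 arrays, and the difference between the pairs was not tested. On the nicotine treated ARRB1 siRNA array, 8 genes abundant in A549 cells were higher as well, with log2 differences of 0.03 to 0.38 from nicotine treated control siRNA cells, and their part in these values was not tested. Among the 500 probe sets nearest to 203757_s_at in signal, the median was 0.01, and after quantile normalization its own difference was 1.06.

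In control siRNA cells 0 of the 9 bright CEACAM probe sets were at least 2-fold higher with nicotine, against 0.989% of all bright probe sets. In ARRB1 siRNA cells 2 of the 9, CEACAM5 201884_at and CEACAM6 203757_s_at, were at least 2-fold higher with nicotine, against 0.905%. Of the 3 CEACAM probe sets among the brightest 25% of all, the same 2 were at least 2-fold higher with nicotine in ARRB1 siRNA cells (0.146% of the brightest 25%) and with ARRB1 siRNA in nicotine treated cells (0.183%). No bright CEACAM probe set reached the limit with nicotine in both pairs, in which 0.0769% of bright probe sets were higher and 0.0146% lower. At a limit of 1.5-fold, these 2 probe sets were higher with nicotine in both pairs, against 0.868% of all bright probe sets.

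The second CEACAM5 probe set, 217291_at, did not follow 201884_at. It had 86.9 and 98.5 in ARRB1 siRNA cells (nicotine, then serum starved) and 58.2 and 149 in control siRNA cells. It was the 1 bright CEACAM probe set at least 2-fold lower with nicotine in control siRNA cells (log2 difference -1.35, spread 0.49), against 0.436% of all bright probe sets. With ARRB1 siRNA its nicotine difference was -0.18 (spread 0.57), and 0 of the 9 were at least 2-fold lower there, against 1.22%. Both CEACAM5 probe sets carry that symbol alone, and whether they detect the same transcripts was not tested.

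**Figure D2:**
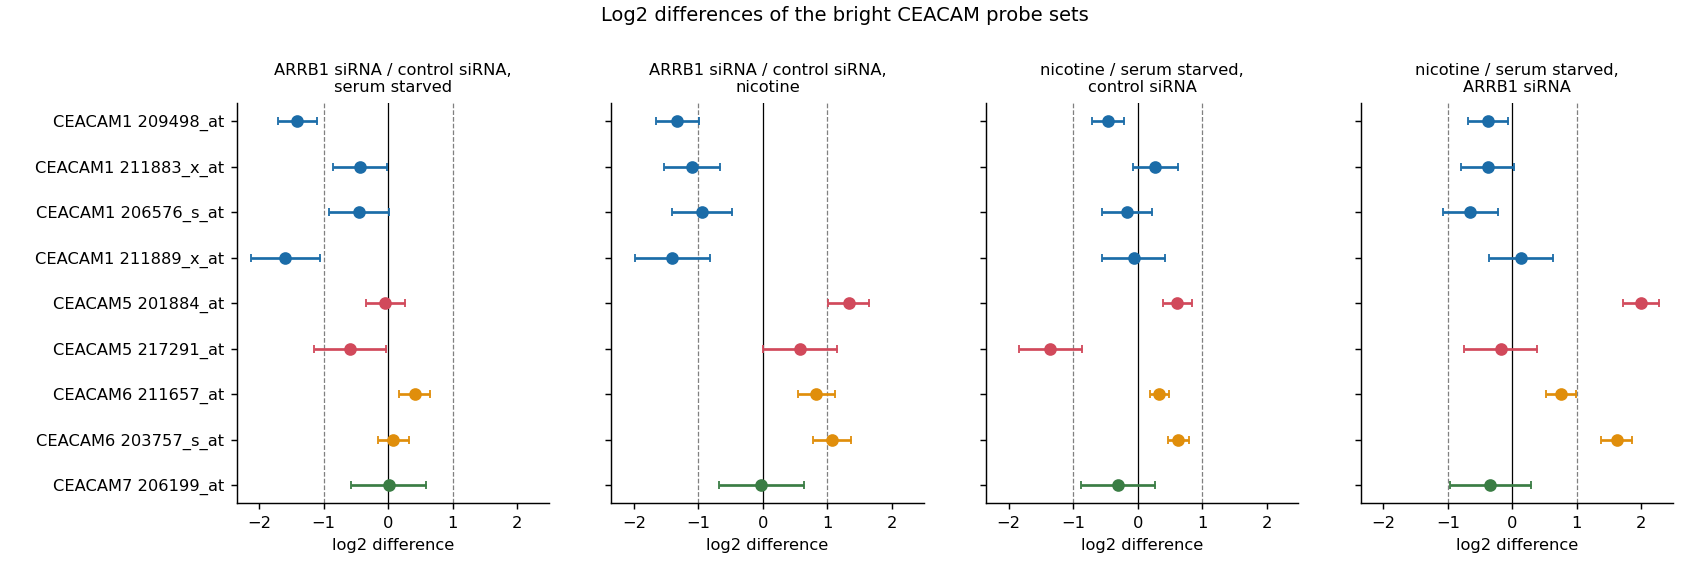
Log2 differences (horizontal axis) of the 9 bright CEACAM probe sets (rows) in the 4 comparisons of arrays, with bars of 1 SD of the same difference over the 500 probe sets nearest in signal and dashed lines at the 2-fold limit. CEACAM1 lies below 0 with ARRB1 siRNA in both left panels, and CEACAM5 201884_at reaches 2.00 with nicotine in ARRB1 siRNA cells.

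No bright CEACAM1 probe set differed 2-fold with nicotine in either pair. Only 1.42% of all bright probe sets did so in control siRNA cells and 2.12% in ARRB1 siRNA cells, so this count says little. On 209498_at the log2 difference with nicotine was -0.46 (spread 0.25) in control siRNA cells and -0.38 (spread 0.31) in ARRB1 siRNA cells. The other 3 bright probe sets had values of -0.16 to 0.28 in control siRNA cells and -0.65 to 0.13 in ARRB1 siRNA cells. On 206576_s_at the value in ARRB1 siRNA cells was -0.65 (spread 0.43), and on 211883_x_at and 211889_x_at the direction was not the same in the pairs.

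CEACAM7 was near the limit of what these arrays resolve. Its bright probe set, 206199_at, had 63.5 and 80.6 in ARRB1 siRNA cells (nicotine, then serum starved) and 64.8 and 80.1 in control siRNA cells. The log2 differences with ARRB1 siRNA were 0.01 and -0.03, and their sign turns when the arrays are centred on their medians or quantile normalized. Those with nicotine were -0.31 in control siRNA cells (spread 0.58) and -0.34 in ARRB1 siRNA cells (spread 0.63). Its mean signal of 71.8 lay just above the limit for bright probe sets, and that of CEACAM1 210610_at, 56.3, just below. The dim CEACAM7 probe sets, 211848_s_at and 206198_s_at, had signals of 1.06 to 11.5 on all 4 arrays, under the 25th percentile of all signals, 16.5. At that signal the spread of a log2 difference was 1.52 to 1.77. The nicotine differences of 206198_s_at, -1.10 in control siRNA and -2.84 in ARRB1 siRNA cells, become 0 with signals below that percentile set to it.

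**Figure D3:**
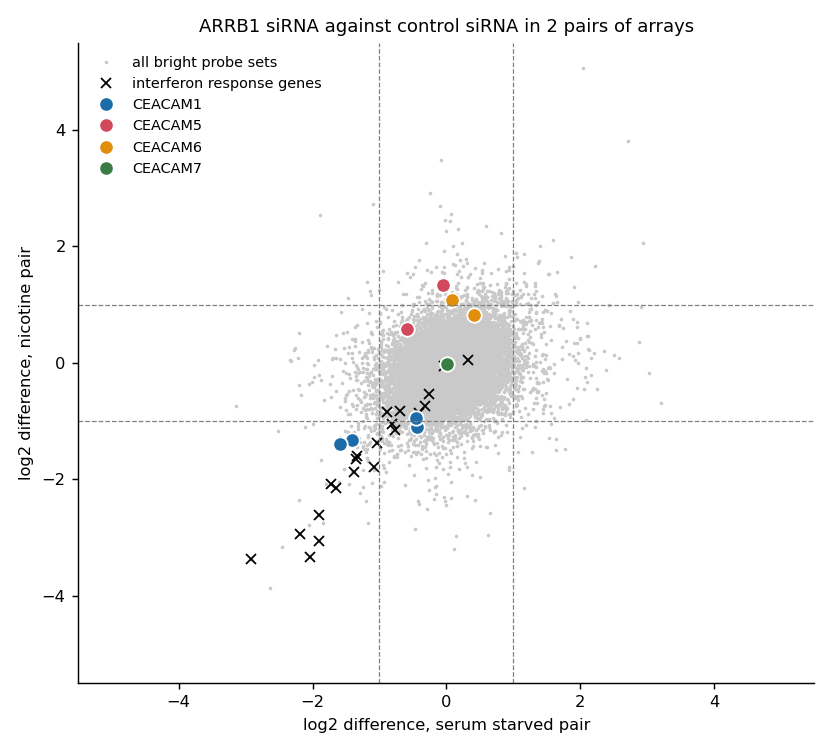
Log2 differences of ARRB1 siRNA against control siRNA in serum starved (horizontal axis) and nicotine treated cells (vertical axis), with 1 grey point for each bright probe set, crosses for the 21 bright genes of the interferon response and colored circles for the 9 bright CEACAM probe sets. CEACAM1 lies at the lower left with the crosses, and 2 of its 4 probe sets are beyond the dashed 2-fold lines in both pairs.

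Genes of the interferon response were lower beside CEACAM1 on the ARRB1 siRNA arrays. Of 21 bright genes of that list, 12 were at least 2-fold lower with ARRB1 siRNA in both pairs, against 0.327% of the 12521 bright genes, and 0 were higher (0.168%). They were IFIT1, IFIT2, IFIT3, IFI44, IFI44L, MX1, MX2, OAS2 and OASL, antiviral effectors, ISG15, a ubiquitin-like modifier, IFI27, and IRF7, a transcription factor of interferon induction. The median log2 difference of the list was -1.08 in serum starved and -1.60 in nicotine treated cells, beside 0.02 in each pair over all bright genes. The summed signal of the 21 genes was 29661 and 37373 in ARRB1 siRNA cells (nicotine, then serum starved) and 76955 and 71643 in control siRNA cells. IRF1, the interferon regulatory factor tied to CEACAM1 transcription, had log2 differences of 0.32 and 0.05 in the same pairs. With nicotine the list had medians of 0.07 in control siRNA cells and -0.28 in ARRB1 siRNA cells. The part of the interferon response in the CEACAM1 values was not tested.

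The genes whose 4 signals were most like those of CEACAM1 209498_at were HABP2, a hyaluronan-binding serine protease, COL5A1, a fibrillar collagen chain, SVOPL, IQGAP2, a scaffold of the actin cytoskeleton, and IFI27. Likeness was measured as the Euclidean distance of log2 signals centred on their mean over the 4 arrays, among 12521 bright genes, and was 0.15 to 0.29 for these 5, with Pearson r of 0.985 to 0.999. HABP2 had 78.4 and 94.9 in ARRB1 siRNA cells (nicotine, then serum starved) and 192 and 236 in control siRNA cells. The nearest genes to CEACAM6 211657_at were SP6, a transcription factor of the SP family, PRLH, DLC1, ACTBP9 and PRSS53, at distances of 0.09 to 0.21. DLC1, with 511 and 351 in ARRB1 siRNA cells and 324 and 262 in control siRNA cells, had the array order of 211657_at. That order was not shared by the other CEACAM6 probe set, 203757_s_at. For CEACAM5 201884_at the nearest genes were CCDC157, KMT2E-AS1, GIP, FCRLB and MNX1-AS1, at distances of 0.46 to 0.78 and with Pearson r of 0.958 to 0.997. A distance can grow with the log2 range of the member itself, 2.00 here against 1.16 for CEACAM6 211657_at and 0.34 for CEACAM7 206199_at. Distances of different members are therefore not comparable. The nearest to the flat CEACAM7 206199_at were APC2, NHLRC2, SKI, SEMA4C and DNMT3B, at 0.01 to 0.04. With 4 arrays many genes share an order, and these values describe likeness of signals only.

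For other genes of the family no bright probe set differed 2-fold with ARRB1 siRNA in both pairs. Of 24 probe sets that name another CEACAM gene or a pregnancy-specific glycoprotein (PSG) gene alone, 10 were bright, each for a gene of its own. In both pairs 0.179% of all bright probe sets were higher and 0.289% lower, and 0 of these 10 passed that limit. Their median log2 difference was 0.66 in serum starved and 0.19 in nicotine treated cells, with PSG6 at 1.09 and 0.22 and PSG11 at 1.08 and -0.83. CEACAM19 had 248 and 250 in ARRB1 siRNA cells (nicotine, then serum starved) and 170 and 172 in control siRNA cells, a log2 difference of 0.54 in both pairs. CEACAM3, a granulocyte receptor, had 164 and 163 in ARRB1 siRNA cells and 184 and 148 in control siRNA cells on its brightest probe set. Dim probe sets of CEACAM3, PSG5 and PSG9, all with the suffix _x_at, were at least 2-fold higher in both pairs. The share of all dim probe sets that were so was not counted. With ARRB1 siRNA, 39.8% of dim probe sets differed at least 2-fold without nicotine and 41.5% with it, so these calls say little. CEACAM8, also of granulocytes, had signals of 1.68 to 2.88 on all 4 arrays.

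Genes next to the members on chromosome 19 stayed within 2-fold. Between CEACAM7 and CEACAM1 and within 100 kb of them RefSeq places 27 other protein-coding genes, 17 of them bright. Of the 17, 0 were at least 2-fold higher or lower in any of the 4 comparisons. Only 1.42% to 2.85% of all bright probe sets were so in a comparison, so this count says little about these genes. ERF and CIC, transcriptional repressors encoded between the CEACAM6 and CEACAM1 genes, differed little with ARRB1 siRNA. For ERF the log2 difference was 0.08 without nicotine and -0.28 with it, and CIC had -0.28 and -0.17. The median of the 17 was 0.08 for the serum starved pair and -0.07 for the nicotine pair.

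Most bright genes that build or share the GPI anchor of CEACAM5 and CEACAM6 stayed within 2-fold, as most bright probe sets did. Of all bright probe sets, 1.42% to 2.85% passed that limit in a comparison. All 28 bright genes of anchor synthesis and attachment, of 29 listed, stayed within 2-fold in all 4 comparisons, with medians of -0.04 and 0.03 with ARRB1 siRNA and -0.01 and -0.01 with nicotine. The widest values with ARRB1 siRNA were those of PIGN (-0.64 with ARRB1 siRNA in nicotine treated cells) and DPM1, a subunit of dolichol-phosphate mannose synthase (0.64 with ARRB1 siRNA in serum starved cells). Of 15 bright genes for other GPI-anchored surface proteins, of 20 listed, BST2, the interferon-induced protein tetherin, was the 1 past the limit, at -1.02 with ARRB1 siRNA in nicotine treated cells and -0.77 in serum starved cells. FOLR1, a folate receptor, had 0.89 without nicotine and 0.28 with it, and CD55, CD59 and CD109 lay between -0.17 and 0.17 in both pairs. The medians of this list with ARRB1 siRNA were 0.10 without nicotine and 0.11 with it.

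None of 11 bright genes, of 16 listed, for binding partners and signalling proteins of CEACAM1 reached 2-fold in any comparison. Of all bright probe sets, only 1.42% to 2.85% did so in a comparison. The medians of the 11 with ARRB1 siRNA were 0.00 in serum starved and -0.03 in nicotine treated cells. PTPN6, which encodes SHP-1, had log2 differences with ARRB1 siRNA of -0.19 and -0.19, and PTPN11, which encodes SHP-2, had 0.15 and 0.09. The largest in the list were PXN (paxillin) at 0.55 and INSR, the insulin receptor, at -0.61, both in serum starved cells. The 3 listed regulators of CEACAM1 exon splicing, HNRNPL, HNRNPA1 and HNRNPM, were bright and ranged from -0.39 to 0.19 with ARRB1 siRNA. Of transcription factors tied to CEACAM genes, 12 of 16 listed were bright and 0 reached the limit in any comparison, beside the same share of all bright probe sets. SOX9 had -0.41 and -0.59 with ARRB1 siRNA, RELA had 0.70 and 0.54, and USF1, a factor of the E-box, had -0.54 and 0.55. The list medians with ARRB1 siRNA were 0.03 without nicotine and 0.08 with it.

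CEACAM5, CEACAM6 and CEACAM7 are usually expressed in a setting of mucosal and intestinal differentiation. Of 14 bright genes of that list, 11 were below 0 with ARRB1 siRNA in serum starved and 12 in nicotine treated cells. The share of all bright genes below 0 was not counted, and their median was 0.02 in each pair. Of 14 bright genes among 18 listed, MUC13, a membrane mucin, was the 1 past the limit. It was lower with ARRB1 siRNA in nicotine treated cells at -1.28 (-0.28 in serum starved cells). Of all bright probe sets, 1.86% were at least 2-fold lower with ARRB1 siRNA in nicotine treated cells. CDH1, which encodes E-cadherin, had -0.77 and -0.71 in the same pairs, and the list medians with ARRB1 siRNA were -0.35 in nicotine treated and -0.21 in serum starved cells. With nicotine in ARRB1 siRNA cells, where CEACAM5 201884_at had 2.00, the highest of the 14 bright genes was LGALS4, a galectin, at 0.64. Among the dim genes of the list TFF2 had 1.64, CDX2 1.02, VIL1 0.97 and KRT20 0.52. With nicotine in control siRNA cells these had 1.60, 1.07, 0.21 and 2.70. Of all dim probe sets, 41.0% differed at least 2-fold with nicotine in ARRB1 siRNA cells and 39.6% in control siRNA cells.

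**Figure D4:**
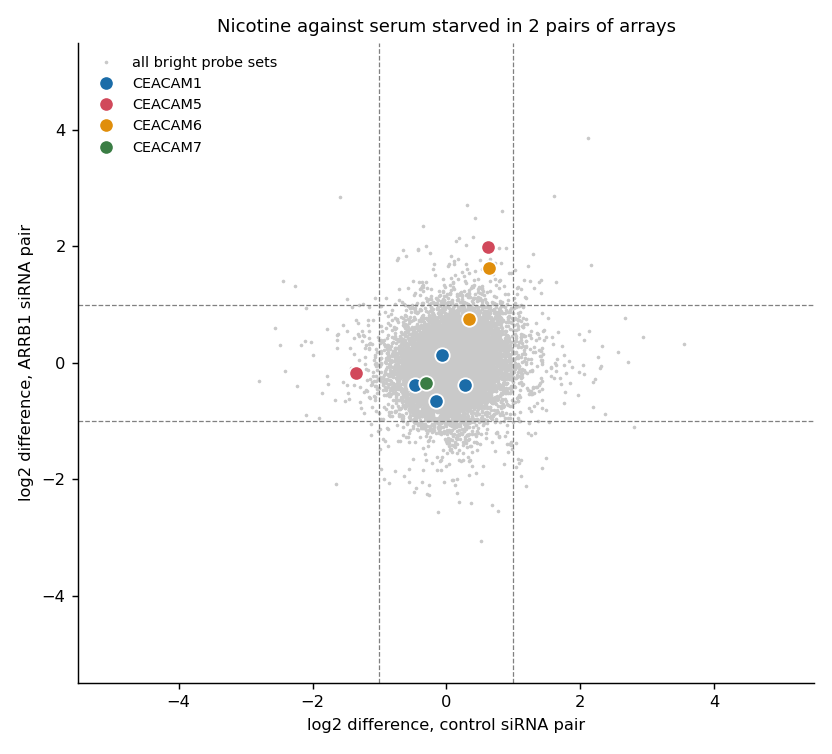
Log2 differences of nicotine treated against serum starved cells with control siRNA (horizontal axis) and ARRB1 siRNA (vertical axis), with 1 grey point for each bright probe set and colored circles for the 9 bright CEACAM probe sets. CEACAM5 201884_at and CEACAM6 203757_s_at stand above the upper dashed 2-fold line at 2.00 and 1.62, and lie at 0.62 and 0.63 on the horizontal axis.

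The arrays carried the profile of A549 cells. All 8 genes listed as abundant in this line (KRT8, KRT18, KRT19, AKR1B10, AKR1C1, ALDH1A1, ALDH3A1 and NQO1) were bright, with a summed signal of 189672 and 155520 in ARRB1 siRNA cells (nicotine, then serum starved) and 155039 and 136141 in control siRNA cells. Of the leukocyte markers with a probe set of their own, 1 of 7 was bright (ITGAM), and PTPRC, which encodes CD45, had at most 35.9. The 7 summed to 426 and 375 in ARRB1 siRNA cells and 317 and 413 in control siRNA cells. Fibroblast markers were bright for 2 of 6 genes and summed to 785 and 752 in ARRB1 siRNA cells and 688 and 663 in control siRNA cells. Endothelial markers were bright for 1 of 4 and summed to 288 and 237 in ARRB1 siRNA cells and 194 and 211 in control siRNA cells.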

How the data were processed

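RNA of 4 A549 samples was measured on Affymetrix arrays, 1 for each condition. The signal intensity values that the authors deposited are linear. The submitters' notes name MAS5 and GCOS 1.4, and the methods also name Expression Console. The deposited values hold no log2 transformation or gene centring. Without control probe sets, the mean after trimming 2% at each end was 498 on each array, so the arrays had been scaled to a common level. The files give no detection calls, and the number of arrays limits precision.

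After 62 control probe sets were left out, log2 differences were taken between arrays for 54613 probe sets with no floor, using Python 3.11.15, numpy 2.4.6 and pandas 2.3.3. Symbols came from a platform annotation, in which 41091 probe sets have 1 symbol, 1801 several and 11721 none. A gene was represented by its brightest probe set with 1 symbol. Promoters were aligned globally with Biopython 1.88 (match 2, mismatch -1, gap opening -5, extension -1). Figures used matplotlib 3.10.9. No test was made, since each condition has 1 array and the members were chosen with their values known. The 2-fold limit is that of the submitters' notes. The code for calls and spreads was tried on simulated data with known differences. Its single noise level was below the SD of log2 differences over all bright probe sets, 0.33 to 0.41. That trial therefore cannot show how reliable the calls are on these arrays.

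The members and gene lists were chosen with earlier results of these data known. Named were all member probe sets, ARRB1, list genes at least 2-fold in both pairs, and up to 4 bright list genes with large differences. The 5 genes nearest to each member were named too. The rule also covers the dim genes KRT20, PTPRC and VWF, at least 2-fold higher with ARRB1 siRNA in both pairs. Their log2 differences were 3.40, 3.11 and 1.79 in serum starved and 1.22, 1.10 and 1.05 in nicotine treated cells. At least 2-fold differences were found for 39.8% and 41.5% of all dim probe sets in these pairs. Neighbouring genes, list genes outside this rule (among them CEACAM3, CEACAM8, PSG11, CD55, CD59, CD109, IRF1, PTPN6, PTPN11, PXN, USF1, DPM1 and LGALS4) and the limits of 1.5-fold for nicotine and of the brightest 25% were added after values were seen. Alternatives were median centring, quantile normalization, floors at the 25th percentile and the median, 1.5-fold and 3-fold limits, other filters on dim probe sets and leaving out _x_at probe sets.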

Additional observations from a re-analysis of the deposited data

Results flagged for a closer look

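With 1 array for each condition, a member was listed here when its log2 differences in the 2 pairs of arrays had opposite signs. These differences were not tested, and with values near 0 the sign carries little. Of the 12 probe sets, 4 met this for ARRB1 siRNA and 4 for nicotine, and 211848_s_at met it for both.

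CEACAM5 201884_at had 1.33 with ARRB1 siRNA in nicotine treated cells and -0.05 in serum starved cells, a gap of 1.38. CEACAM5 217291_at had 0.58 and -0.60 in the same pairs, a gap of 1.17, each about as large as the spread of 0.57 and 0.56 at its signal. CEACAM1 210610_at had 0.01 with nicotine in ARRB1 siRNA cells and -2.29 in control siRNA cells, a gap of 2.31, with a signal of 16.5 on the nicotine treated control siRNA array. CEACAM1 211883_x_at had -0.38 and 0.28 in those pairs, a gap of -0.66, with each difference smaller than its spread of 0.41 and 0.35. For CEACAM1 211889_x_at with nicotine (0.19), CEACAM7 206199_at with ARRB1 siRNA (-0.036) and CEACAM7 211848_s_at (-1.25 with ARRB1 siRNA and with nicotine), both differences were smaller than their spread.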

How the results depend on the processing

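The number of the 9 bright CEACAM probe sets past the 2-fold limit in each of the 4 comparisons, and in both pairs with ARRB1 siRNA or with nicotine, was the same with arrays centred on their medians, after quantile normalization and with either floor on the signal. The count of 2 with ARRB1 siRNA in both pairs became 0 with a 3-fold limit, 1 without _x_at probe sets (209498_at), and 0 with bright probe sets taken from the 75th percentile, 433.9, just above the mean signal of 426 of 209498_at. The count of 0 with nicotine in both pairs became 2 with a 1.5-fold limit, and 1 with no filter on dim probe sets (206198_s_at). Of 144 single values of bright probe sets under these scalings and floors, all 144 moved by less than the spread at their signal, and 6 turned sign or became 0. These were values of CEACAM7 206199_at with ARRB1 siRNA and of CEACAM1 211889_x_at with nicotine in ARRB1 siRNA cells. The labels carry no replicate numbers, so there was no replicate pairing to use, and an additive fit over the 4 arrays, which would leave 1 residual degree of freedom, was not made. Dim probe sets limit what can be said of CEACAM7.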
